A study of Mus musculus with 2 samples.

Results

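The 10 genes described here are transcripts of the red cell lineage: Kel, Klf1, Gata1, Car1, Car2, Epor, Aqp1, Ermap, Blvrb and Tfrc. They are 10 of the 32285 genes counted in the series. Kel was chosen by its low ratio of UMIs (unique molecular identifiers, each counted as 1 molecule) between the libraries. The other 9 genes were set beside it with results of these data already known, so every difference of these genes between the libraries, over all cells or within a group of cells, is a description and supports nothing else. The cells were mouse bone marrow cells that carried the CD45.2 form of the leukocyte surface protein CD45 and the stem and progenitor receptor Kit, taken 10 weeks after transplantation. They were profiled by CITE-seq, which reads the transcripts of each cell together with DNA barcodes carried by antibodies on its surface. The series held 1 control library and 1 library labelled Utx-deleted, where Utx is the histone demethylase gene Kdm6a. Both libraries shared the tissue, the gate and the time. The labels give no strain, allele, Cre driver, sex, recipient or number of animals for either group.

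Red cells arise from multipotent progenitors through a branch shared with megakaryocytes and, in the mouse, with basophils and mast cells. The transcription factors GATA1 and KLF1 switch on the genes of haem, globin and membrane proteins, and the hormone erythropoietin, acting through the receptor encoded by Epor, keeps the young erythroid cells alive. Kit is present on early erythroid progenitors and is lost as they mature, so a Kit-positive gate holds the early part of the lineage. Kel encodes the Kell blood group protein, a membrane metalloprotease joined in the red cell membrane to the XK protein. Ermap encodes the carrier of the Scianna blood group, and Aqp1 a water channel that carries the Colton blood group. Car1 and Car2 encode carbonic anhydrases, Blvrb a biliverdin and flavin reductase, and Tfrc the transferrin receptor that brings iron into the cell.

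Kel lies on chromosome 6 (41686330 to 41704339, minus strand, GRCm38 coordinates of GENCODE M21), Klf1 on chromosome 8 (84901928 to 84905291, plus strand) and Gata1 on chromosome X (7959260 to 7978071, minus strand). Car1 (chromosome 3, 14766216 to 14808368, minus strand) and Car2 (chromosome 3, 14886273 to 14900770, plus strand) are neighbours, with 77904 bases between them. In this annotation Kel overlaps Gm37527 and Car1 overlaps Gm16399, each on the same strand, and the other 8 genes overlap none.

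Promoter windows of RefSeq (GRCm38.p6) ran from 250 bases before to 50 bases after the start used there. They were found for 8 of the 10 genes, 10 windows in all, since Blvrb and Tfrc have 2 each (those of Tfrc overlap). That start can differ from the gene start of GENCODE M21. The window of Gata1 (chrX:7967861-7968160) and the second window of Blvrb (chr7:27452168-27452467) lie inside the annotated genes. Since GATA1 and KLF1 are members and act on erythroid promoters, the windows were searched on both strands for the GATA motif in the form AGATAA, the GATA motif in the form TGATAA, and the letters CACCC, the core that KLF1 binds. The GATA letters were present in 4 of the 10 windows (Kel, Klf1, Epor and Ermap), against 18.6% of all 32851 windows of this length, and CACCC in 10 of 10, against 57.5%. Both were present in 4 of 10, against 8.96% of all windows. A match describes letters and not a bound site. The windows of the 4 genes with both motifs are printed 5′ to 3′ on the strand of the gene, with the matches in capitals (a match on the other strand appears as its reverse complement). They lie at chr6:41704276-41704575 (minus strand) for Kel, chr8:84901732-84902031 (plus strand) for Klf1, chr9:21963527-21963826 (minus strand) for Epor and chr4:119189946-119190245 (minus strand) for Ermap.
Kel: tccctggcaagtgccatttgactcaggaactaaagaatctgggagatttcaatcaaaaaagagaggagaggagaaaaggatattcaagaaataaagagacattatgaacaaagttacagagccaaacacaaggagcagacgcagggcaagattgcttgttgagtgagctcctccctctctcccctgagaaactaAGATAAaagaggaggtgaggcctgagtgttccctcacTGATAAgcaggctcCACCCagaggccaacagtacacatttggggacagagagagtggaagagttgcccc
Klf1: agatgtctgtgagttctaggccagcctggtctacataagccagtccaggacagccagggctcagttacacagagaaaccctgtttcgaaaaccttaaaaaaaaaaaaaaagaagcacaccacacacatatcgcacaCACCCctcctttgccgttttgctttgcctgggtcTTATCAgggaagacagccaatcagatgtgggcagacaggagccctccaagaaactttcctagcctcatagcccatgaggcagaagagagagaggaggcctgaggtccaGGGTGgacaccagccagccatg
Epor: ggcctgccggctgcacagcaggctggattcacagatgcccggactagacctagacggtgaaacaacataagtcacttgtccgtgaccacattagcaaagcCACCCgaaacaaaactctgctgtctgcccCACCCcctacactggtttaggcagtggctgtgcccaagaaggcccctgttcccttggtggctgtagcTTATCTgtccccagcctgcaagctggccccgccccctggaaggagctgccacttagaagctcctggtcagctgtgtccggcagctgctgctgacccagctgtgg
Ermap: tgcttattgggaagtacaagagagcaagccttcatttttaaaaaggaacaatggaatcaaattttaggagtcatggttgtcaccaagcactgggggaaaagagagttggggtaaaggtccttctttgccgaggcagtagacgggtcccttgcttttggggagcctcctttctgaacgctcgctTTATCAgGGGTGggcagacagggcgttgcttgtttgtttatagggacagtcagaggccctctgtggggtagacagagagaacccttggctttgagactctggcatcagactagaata
The window of Kel held 2 GATA matches, which begin 56 and 19 bases before the start, followed by CACCC from 5 bases before it. Those of Klf1, Epor and Ermap held 1 GATA match each. The windows of Gata1, Aqp1, Blvrb and Tfrc held CACCC and neither GATA form.

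The libraries held 7827 and 7883 cell barcodes with 122130256 and 129736034 gene UMIs, in the order control and Utx-deleted that is kept below. After filters 7011 and 7206 cells were kept, with medians of 12367 and 11816 UMIs (levels are UMIs summed over cells per 1000000 gene UMIs, CPM). Of the kept cells 13 barcodes occurred in both libraries. Kdm6a itself had 11880 and 11802 UMIs (110 and 103 CPM), so its counts, which come from the 3-prime end of transcripts, do not check the label. Maturing-neutrophil-like cells made up 46.2% and 74.3% of the cells, but clusters left unnamed held a further 28.0% and 0.833%. Summed maturing-neutrophil markers stood at 293462 CPM in the unnamed control cells and 277860 CPM in the named ones, so much of the difference in share rests on the naming. With 1 library per group there is no replicate and no test. Intervals are exact 95% Poisson or binomial intervals, cover counting error only and say nothing of the variation between animals.

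Kel was almost absent from the library labelled Utx-deleted. It had 371 UMIs in the control library (3.43 CPM) and 11 UMIs in the other (0.0962 CPM, interval 0.0480 to 0.172). The log2 ratio was -5.03 (interval -6.17 to -4.30), and 2 of the 13558 genes with at least 100 UMIs had a lower one. In total 8 of the 10 genes were lower there by 2-fold or more, against 5.36% of the 13558 genes, and 0 of 10 were higher by as much, against 1.39%. The median log2 ratio was -2.13 over the 10 genes and -0.114 over all 13558. Since the set was drawn up with these ratios known, the counts are a description.

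Of the regulators, Klf1 differed more than Gata1. Klf1, the factor that drives most erythroid genes, went from 5.26 CPM (569 UMIs) to 0.717 CPM (82 UMIs), a log2 ratio of -2.86 (interval -3.23 to -2.54). Gata1, which megakaryocytes, mast cells and eosinophils also use, went from 8.83 CPM (955 UMIs) to 3.48 CPM (398 UMIs), a log2 ratio of -1.34 (interval -1.52 to -1.17). Epor went from 2.07 CPM (224 UMIs) to 0.551 CPM (63 UMIs), a log2 ratio of -1.89 (interval -2.34 to -1.50).

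The membrane proteins Aqp1 and Ermap came next to Kel. Aqp1 had 933 and 91 UMIs (8.63 and 0.796 CPM, log2 ratio -3.42, interval -3.77 to -3.13). Ermap had 586 and 57 UMIs (5.42 and 0.498 CPM, log2 ratio -3.42, interval -3.86 to -3.05). The enzymes Car1 and Car2 were abundant and differed less: Car1 went from 77.5 to 17.1 CPM (8378 and 1955 UMIs, log2 ratio -2.18, interval -2.25 to -2.11) and Car2 from 78.7 to 18.7 CPM (8510 and 2136 UMIs, log2 ratio -2.07, interval -2.14 to -2.01).

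Blvrb and Tfrc, which many blood cells express, stood apart from the other 8. Blvrb had 29.3 CPM (3165 UMIs) and 24.0 CPM (2749 UMIs), a log2 ratio of -0.28 that changed sign to 0.24 when each cell was thinned to 2000 UMIs and so given the same weight. Tfrc had 35.8 CPM (3877 UMIs) and 28.4 CPM (3248 UMIs), a log2 ratio of -0.34.

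**Figure D1:**
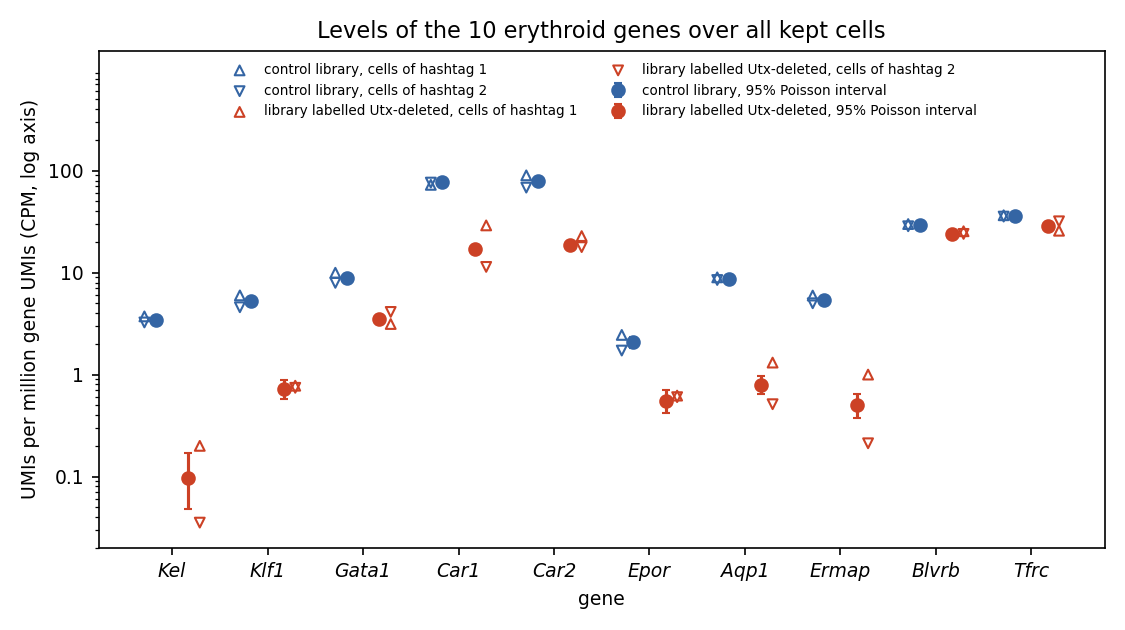
Level of each of the 10 genes over all kept cells in CPM on a log axis, with the control library in blue and the library labelled Utx-deleted in red. Filled circles are whole libraries with 95% Poisson intervals and open triangles are the cells of each hashtag; 8 genes lie lower in red by 2-fold or more, and Blvrb and Tfrc lie close together.

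Each library pooled cells of 2 hashtags, antibodies that mark cell suspensions before pooling, and the labels do not say what the hashtags marked. In the control library Kel had 3.72 CPM in hashtag 1 (193 UMIs) and 3.25 CPM in hashtag 2 (166 UMIs). In the library labelled Utx-deleted it had 0.200 CPM in hashtag 1 (9 UMIs) and 0.0353 CPM in hashtag 2 (2 UMIs). Both values of that library lay below both of the control. The log2 ratio of Kel was -4.07 in hashtag 1 (interval -5.37 to -3.26) and -5.95 in hashtag 2 (interval -9.58 to -4.65).

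The other genes kept their direction in both hashtags, with unequal sizes. Car1 had a log2 ratio of -1.32 in hashtag 1 and -2.75 in hashtag 2, and Ermap -2.55 and -4.45. Gata1 went the other way round, with -1.66 in hashtag 1 and -0.94 in hashtag 2, where it no longer reached 2-fold. Few cells lay behind some of these sums. In the library labelled Utx-deleted 5 cells held 80.7% of all Car1 UMIs and 87.7% of all Ermap UMIs, against 20.6% and 23.9% in the control library.

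Far fewer cells carried Kel in the library with the Utx-deleted label than in the control library. Kel was detected in 131 control cells (1.87%, interval 1.56 to 2.21%) and in 4 cells there (0.0555%, interval 0.0151 to 0.142%). The mean was 2.83 UMIs per Kel-positive cell in the control library and 2.75 in the other, where 1 deep cell held 7 of the 11 UMIs. Relative to the depth of these cells, the level was 98.9 and 68.6 CPM. Maturing-neutrophil-like cells, which should lack Kel, gave 2 of 3238 (0.0618%) and 0 of 5352 (exact upper limit 0.0689%), at medians of 9058 and 9757 UMIs. The share of all cells with Kel in the library labelled Utx-deleted (0.0555%) was no higher than that control background share (0.0618%). These are shares of unlike sets of cells, and the background of the library labelled Utx-deleted itself was 0 of 5352. Each of the 4 Kel-positive cells of that library carried at least 6 of the other genes. Thinned to 2000 UMIs per cell, Kel was detected in 27 of 6846 control cells and in 0 of 7127 (exact upper limit 0.0517%).

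The other 7 genes past 2-fold were also found in fewer cells. Klf1-positive cells went from 198 (2.82%) to 45 (0.624%), with a mean of 2.87 and 1.82 UMIs per positive cell. Aqp1-positive cells went from 243 (3.47%) to 37 (0.513%), with means of 3.84 and 2.46 UMIs. Ermap-positive cells went from 79 (1.13%) to 12 (0.167%), with means of 7.42 and 4.75 UMIs. For these 3 genes both the number of cells and the level per cell were lower.

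By the mean UMIs per positive cell, Gata1, Car1, Car2 and Epor differed mainly in cell number. Gata1 was detected in 354 cells (5.05%) and 154 cells (2.14%), with means of 2.70 and 2.58 UMIs per positive cell. Car1 was detected in 240 cells (3.42%) and 52 cells (0.722%), with means of 34.9 and 37.6 UMIs. Its second mean was set by few cells, since 5 cells held 80.7% of the Car1 UMIs there, against 20.6% in the control library. The means therefore do not give the level of Car1 in a typical positive cell. Car2 was detected in 1112 and 324 cells and Epor in 133 and 44. Blvrb went the other way: it was detected in 1334 control cells (19.0%) and in 1880 of the other library (26.1%), with means of 2.37 and 1.46 UMIs. In maturing-neutrophil-like cells Blvrb was detected in 10.4% and 19.8%, and these cells held 45.8% of its UMIs in the library labelled Utx-deleted.

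**Figure D2:**
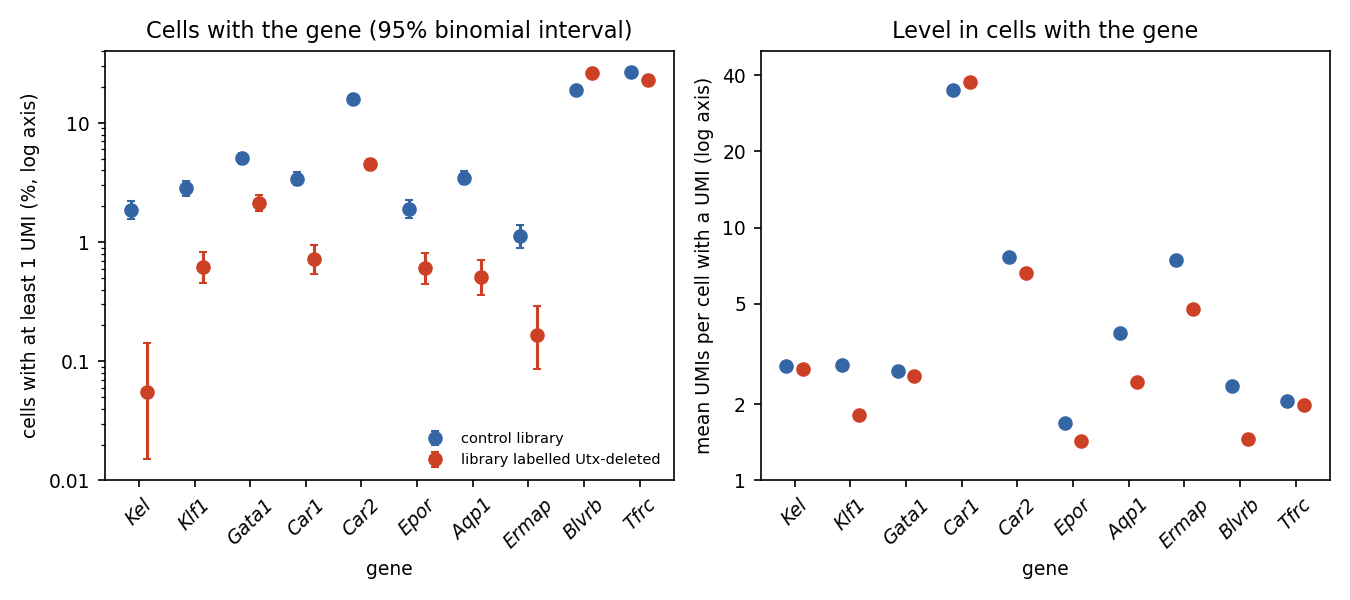
Left, percentage of kept cells with at least 1 UMI of each gene with 95% binomial intervals; right, mean UMIs per cell with the gene; both axes are logarithmic, control in blue and the library labelled Utx-deleted in red. Kel went from 1.87% to 0.0555% of cells with 2.83 and 2.75 UMIs per positive cell, and Blvrb is the gene whose share of cells was higher in red.

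To place these cells, both libraries were clustered together without the 10 genes, and clusters were named from marker lists. No cluster could be named erythroid at first, so the cluster with the highest erythroid marker score was clustered a second time, a step chosen after the data were seen. This parent cluster held 415 control cells (5.92%) and 155 cells of the other library (2.15%), and was divided into 3 megakaryocyte-like, 1 basophil-or-mast-like and 2 erythroid-like clusters. The first erythroid-like cluster, called early here, rested on 4 detected markers, was led by Scin, St8sia6 and Ifitm1, and held 89 and 38 cells. Its name is weak: summed erythroid markers stood at 504 and 350 CPM, below basophil and mast markers (735 and 1613 CPM). Stem and multipotent progenitor markers stood at 994 and 1230 CPM. Of the 42 erythroid-like cells of the library labelled Utx-deleted, 38 lay in this cluster, so values for erythroid-like cells there rest mostly on it. The second, called later, rested on 11 detected markers, was led by Slc25a21, Abcb4 and Gm15915, and held 56 and 4 cells. Markers of mature erythroblasts were at or near 0 in both: Slc4a1, the anion exchanger of the red cell, had 0 UMIs, and Epb42, a membrane skeleton protein, had 3 UMIs in all.

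Erythroid-like cells were less frequent in the library labelled Utx-deleted, most of all the later ones. Both clusters together were 145 control cells, or 2.07% (interval 1.75 to 2.43%), against 42 cells, or 0.583% (interval 0.420 to 0.787%), a 3.55-fold lower share. The later cluster went from 0.799% to 0.0555%, 14.4-fold lower, and the early cluster from 1.27% to 0.527%, 2.41-fold lower. The erythroid-like share was lower in both hashtags, 2.31% against 0.537% in hashtag 1 and 1.88% against 0.704% in hashtag 2. Megakaryocyte-like cells were 2.91% and 1.28%, and HSC/MPP-like cells (named from stem and multipotent progenitor markers) 8.26% and 3.76%. Lower shares were thus not particular to the erythroid-like cells. The HSC/MPP-like cells held summed neutrophil progenitor markers at 6835 and 10838 CPM, beside 1178 and 805 CPM for their own list. Their share is therefore not a share of stem cells.

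Kel was confined almost wholly to the parent cluster, which held 97.6% of its control UMIs and 100% of the 11 UMIs in the other library. In control cells its level was 88.7 CPM in the later erythroid-like cluster (189 UMIs), 66.3 CPM in the early one (80 UMIs), 16.5 CPM in basophil-or-mast-like cells (22 UMIs), 13.6 CPM in megakaryocyte-like cells (71 UMIs) and 0.434 CPM in HSC/MPP-like cells (7 UMIs). The intervals of the 2 erythroid-like clusters overlapped (76.5 to 102 and 52.6 to 82.5 CPM), as did those of the basophil-or-mast-like and megakaryocyte-like cells (10.3 to 24.9 and 10.6 to 17.2 CPM).

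Most other members followed the same axis. In control cells Klf1 had 162 CPM in the later cluster, 60.5 CPM in the early one and 20.5 CPM in megakaryocyte-like cells. Ermap was the most restricted, with 253 CPM in the later cluster, 15.7 CPM in the early one and 1.73 CPM in megakaryocyte-like cells. Gata1 varied less, with 116, 107 and 79.9 CPM in the same order and 46.4 CPM in basophil-or-mast-like cells. Car2 had 479 CPM in megakaryocyte-like and 145 CPM in HSC/MPP-like cells. Tfrc had 96.6 CPM in the later erythroid-like cluster, 64.6 CPM in neutrophil-progenitor-like cells and 18.2 CPM in the early erythroid-like cluster.

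**Figure D3:**
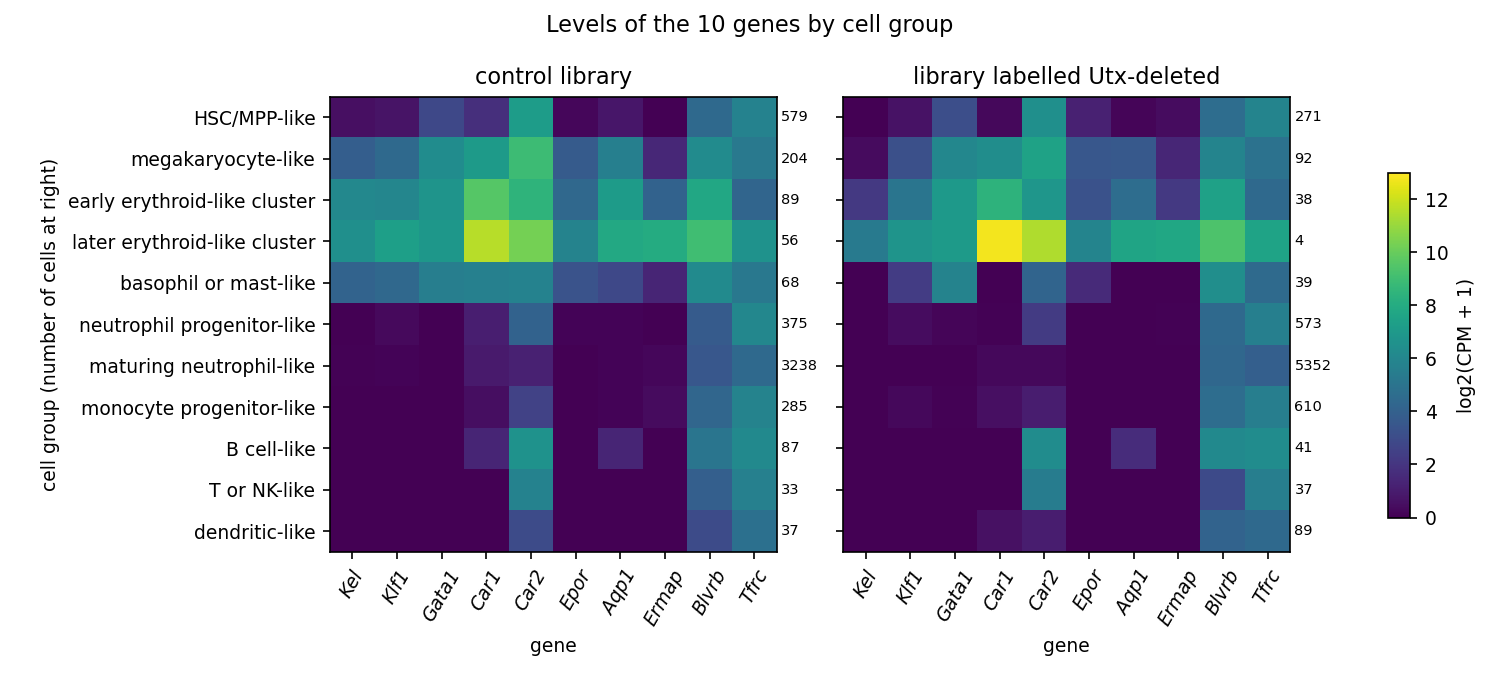
Level of the 10 genes in each cell group as log2(CPM + 1), control at left and the library labelled Utx-deleted at right, with the number of cells of each group beside its row. Kel is brightest in the 2 erythroid-like rows of the control library (66.3 and 88.7 CPM) and at or near 0 in most rows at right, where the later erythroid-like row rests on 4 cells.

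Within the branch Kel was lower too, while Gata1 stayed close. In the parent cluster Kel had 36.7 CPM (362 UMIs, 30.4% of cells) and 2.59 CPM (11 UMIs, 2.58% of cells), a log2 ratio of -3.71 (interval -4.84 to -2.97). Gata1 had 86.5 and 74.5 CPM there, a log2 ratio of -0.21 (interval -0.41 to -0.027), and was detected in 74.0% and 73.5% of the cells. In the parent cluster 5 of the 10 genes were at least 2-fold lower, against 1.57% of 9630 genes, and 0 higher, against 1.5%. These were Kel, Klf1 (log2 ratio -1.79), Aqp1 (-2.13), Ermap (-2.21) and Car2, which stood at the threshold (576 and 288 CPM). Car1 (-0.88), Epor (-0.87), Blvrb (-0.86) and Tfrc (-0.43) lay short of it. The make-up of this cluster differed as well: its summed maturing-neutrophil markers stood at 5669 and 16527 CPM, eosinophil markers at 41.7 and 284 CPM, megakaryocyte markers at 1122 and 1741 CPM and erythroid markers at 388 and 245 CPM. The part of the eosinophil, megakaryocyte and erythroid markers in the result was not tested. Without cells over 1% maturing-neutrophil UMIs the log2 ratio of Kel was -3.54, and without cells over 0.1% basophil or mast marker UMIs it was -3.53.

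In erythroid-like cells alone Kel had 80.6 CPM (269 UMIs in 145 cells) and 12.6 CPM (10 UMIs in 42 cells), a log2 ratio of -2.55 (interval -3.76 to -1.78). Klf1 had 125 and 51.6 CPM (log2 ratio -1.25) and Ermap 167 and 59.1 CPM (-1.47), and Aqp1 had a log2 ratio of -1.51. Gata1 had 113 and 126 CPM. Here 4 of 10 genes were at least 2-fold lower, against 3.1% of 6394 genes, and 0 higher, against 1.81%. The summed basophil and mast markers stood at 282 and 1184 CPM in these cells, with 1 of 8 and 0 of 8 markers at 0, and without cells over 0.1% of such UMIs the log2 ratio of Kel was -2.03. Stem and multipotent progenitor markers stood at 513 and 946 CPM and maturing-neutrophil markers at 2643 and 1574 CPM. The erythroid markers themselves stood at 630 and 438 CPM and megakaryocyte markers at 62.6 and 37.8 CPM. The part of the progenitor, erythroid and megakaryocyte markers was not tested. Without cells over 1% maturing-neutrophil UMIs the log2 ratio of Kel was -2.56. When a cell was instead called erythroid from its own markers, which kept 49 and 2 cells, the log2 ratio of Kel was -0.64 (interval -2.16 to 0.25), so the size of the difference depends on which cells are compared.

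The 2 erythroid-like clusters gave unequal pictures. In the early cluster Kel went from 80 UMIs in 36 of 89 cells (66.3 CPM) to 2 UMIs in 1 of 38 cells (3.43 CPM), a log2 ratio of -3.71 (interval -7.34 to -2.37). Gata1 had 107 and 123 CPM and Blvrb 223 and 175 CPM in the same cells, while Aqp1 had 140 and 24.0 CPM, Car1 756 and 336 CPM and Car2 353 and 111 CPM. The summed basophil and mast markers were 735 and 1613 CPM in this cluster, with 1 of 8 and 0 of 8 markers at 0. Stem and multipotent progenitor markers were 994 and 1230 CPM, erythroid markers 504 and 350 CPM and megakaryocyte markers 124 and 49.7 CPM. The part of all these markers in the result was not tested. In the later cluster, which held 4 cells of the library labelled Utx-deleted, Kel had 88.7 CPM (189 UMIs) and 37.9 CPM (8 UMIs), a log2 ratio of -1.06 (interval -2.46 to -0.22). Car1 there was higher, with 3087 and 6983 CPM, as was Car2, with 1263 and 2828 CPM, and Ermap (253 and 213 CPM) and Aqp1 (230 and 190 CPM) had overlapping intervals.

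Kel was also lower in the other groups of the branch. In megakaryocyte-like cells it had 71 UMIs in 204 cells (13.6 CPM) and 1 UMI in 92 cells (0.321 CPM), a log2 ratio of -4.43 (interval -10.7 to -2.88). Gata1 had 79.9 and 64.6 CPM and Epor 12.3 and 10.6 CPM in these cells. Aqp1 had 47.0 and 11.2 CPM, Car2 479 and 178 CPM and Klf1 20.5 and 8.03 CPM, each more than 2-fold lower. Their summed maturing-neutrophil markers were 8715 and 22001 CPM. Their antibody tags differed as well, in medians per 10000 tag UMIs without hashtags. The platelet integrin CD41 had 550 and 2203, CD150 784 and 282 and CD48 5169 and 2885. The part of these differences was not tested. In basophil-or-mast-like cells Kel had 22 UMIs in 68 cells and 0 in 39 cells, at least 2.82-fold lower when set against a floor of 3 counts over the group. Of the 39 cells, 18 came from a cluster led by Cma1 and Hs6st2 that held 2 control cells. That cluster lay outside the parent cluster and had 0 Kel UMIs in both libraries, but its UMIs enter the 2.82-fold bound. In the basophil-or-mast-like cluster inside the parent cluster, Kel had 22 UMIs in 66 cells (16.7 CPM) and 0 in 21 cells. A bound from those cells alone would be smaller. Summed maturing-neutrophil markers in the basophil-or-mast-like cells were 1310 and 10177 CPM, and eosinophil markers 290 and 2338 CPM, and their part in the result was not tested.

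**Figure D4:**
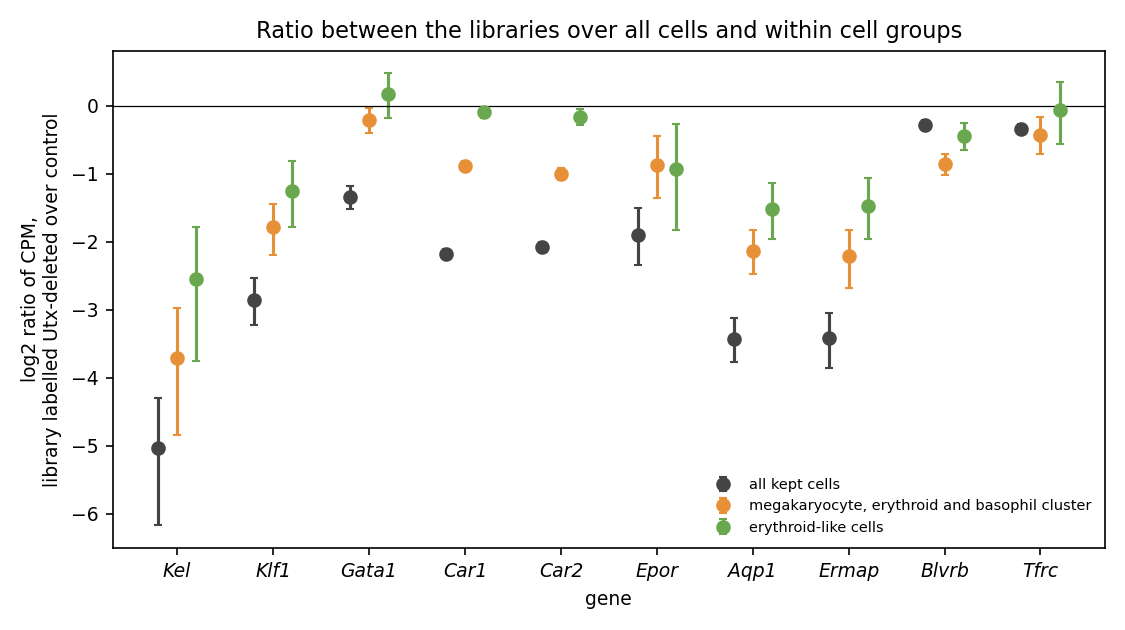
Log2 ratio of CPM, the library labelled Utx-deleted over control, for each gene over all kept cells (grey), in the parent cluster (orange) and in erythroid-like cells (green), with 95% counting intervals. Kel lies at -5.03, -3.71 and -2.55, whereas Gata1 moves from -1.34 to near 0.

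Kel-positive control cells carried most of the other members. Of the 131 cells, 93.9% had Blvrb, 87.8% Car2, 83.2% Gata1, 79.4% Klf1, 72.5% Car1, 71.8% Aqp1, 58.0% Tfrc, 49.6% Epor and 42.0% Ermap. Among Kel-negative control cells the shares were 1.37% for Klf1, 2.11% for Car1 and 0.349% for Ermap, against 17.6% for Blvrb and 26.1% for Tfrc. The median Kel-positive cell had 7 of the other 9 genes. By cell group 47 of the 131 lay in the later erythroid-like cluster, 36 in the early one, 32 among megakaryocyte-like, 11 among basophil-or-mast-like, 3 among HSC/MPP-like and 2 among maturing-neutrophil-like cells. Kel-positive cells were deep, with a median of 25261 UMIs.

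Read the other way, cells with another erythroid gene had Kel less often in the library labelled Utx-deleted. Of Ermap-positive cells 69.6% (55 of 79) and 16.7% (2 of 12) had Kel. Of Klf1-positive cells 52.5% (104 of 198) and 8.89% (4 of 45) had it. Of Gata1-positive cells the shares were 30.8% (109 of 354) and 2.60% (4 of 154), and of Car1-positive cells 39.6% (95 of 240) and 7.69% (4 of 52). The binomial intervals of the libraries did not overlap for any of these 4 genes, of which Ermap came closest (58.2 to 79.5% and 2.09 to 48.4%).

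Cells were then compared by the number of the other 9 genes detected in them. Of cells with 5 or more of the other 9 genes, 99 of 199 control cells (49.7%, interval 42.6 to 56.9%) and 4 of 40 cells of the other library (10.0%, interval 2.79 to 23.7%) had Kel. Of cells with 3 to 4 of them, 25 of 343 (7.29%) and 0 of 156 (exact upper limit 2.34%) had it. Median depth was higher in the library labelled Utx-deleted in both strata, 25220 and 31346 UMIs in the first. Other members were also found in fewer such cells, and whether the strata match in erythroid state was not tested. Of cells with 3 or more of the other 9 genes, counted anew for each gene, Car1 was in 28.9% and 11.6%, Aqp1 in 39.8% and 17.9% and Ermap in 11.6% and 3.59%, against 22.9% and 2.04% for Kel. The level of Klf1 in such cells had a log2 ratio of -1.85, that of Kel -3.63. Gata1 was in 54.9% and 49.7% and Tfrc in 52.6% and 50.8%. Relative to the summed UMIs of the other 9 genes, Kel had 13.6 UMIs per 1000 in the control library and 1.02 in the other, a log2 ratio of -3.62 (interval -4.76 to -2.88). Set against single genes, the log2 ratio was smallest against Ermap (-1.59, interval -2.73 to -0.86) and Aqp1 (-1.60, interval -2.73 to -0.86). It was largest against the widely expressed Blvrb (-4.75) and Tfrc (-4.70), whose UMIs are part of the summed value.

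**Figure D5:**
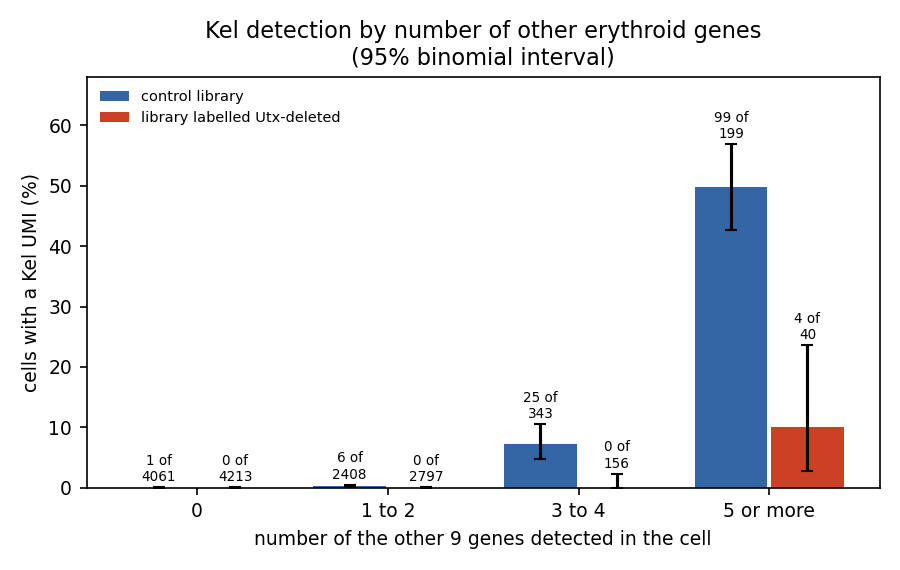
Percentage of cells with a Kel UMI by the number of the other 9 genes detected in the cell, control in blue and the library labelled Utx-deleted in red, with 95% binomial intervals and the counts above each bar. In cells with 5 or more other genes 99 of 199 control cells and 4 of 40 cells of the other library had Kel.

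Cells with 3 or more Car1 UMIs, a comparison added after the data were seen, gave a set chosen without Kel (median depths of 23436 and 25472 UMIs). There were 127 such control cells and 22 in the library labelled Utx-deleted. Kel was detected in 88 of them (69.3%, interval 60.5 to 77.2%) and in 4 (18.2%, interval 5.19 to 40.3%), with 82.8 and 16.6 CPM, a log2 ratio of -2.20 (interval -3.34 to -1.46). Klf1 had 126 and 66.4 CPM (log2 ratio -0.89, interval -1.40 to -0.47), Aqp1 a log2 ratio of -1.23 and Ermap 161 and 76.9 CPM (-1.04). Gata1 had 115 and 122 CPM, Epor 42.6 and 36.2 CPM and Tfrc 71.8 and 75.4 CPM, with intervals of the ratio that included 0. The summed basophil and mast markers had 108 and 142 CPM in these cells. Of the cells, 56 control cells and 4 others lay in the later erythroid-like cluster. Without that cluster 71 and 18 cells were left, with median depths of 15170 and 22227 UMIs. Kel then had a log2 ratio of -3.08 (interval -5.78 to -1.89) and Aqp1 -2.08. Car2 (-0.70), Blvrb (-0.66) and Car1 (-0.27) were also lower with intervals below 0, while the intervals of Klf1 (-0.48) and Ermap (-0.38) included 0. The basophil and mast markers had 235 and 208 CPM there.

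The 4 Kel-positive cells of the library labelled Utx-deleted had 6 to 9 of the other genes. A cell of the later erythroid-like cluster, 81170 UMIs deep, held 7 of the 11 Kel UMIs, beside 12 of Klf1, 18 of Gata1, 271 of Car1 and 24 of Ermap. Another cell of that cluster held 1 Kel UMI beside 441 of Car1. The early erythroid-like cell held 2 Kel UMIs and the megakaryocyte-like cell 1. Of the cells, 3 carried hashtag 1 and 1 hashtag 2. The barcodes left out for their doublet score held a further 14 Kel UMIs in 9 control barcodes and 6 in 1 barcode of the other library.

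Genes whose pattern over cell groups was most like that of Kel were ranked in the control library over 21 clusters with at least 30 cells, which share 1 library and its depth. Among 11426 genes the highest Pearson correlations of log2(CPM + 1) were those of Klf1 (0.983), Car1 (0.978), Atp1b2 (0.971), Tspo2 (0.966) and Gm15915 (0.960). Of the other members Epor ranked 9th, Aqp1 15th, Gata1 23rd, Blvrb 32nd, Ermap 36th, Car2 144th and Tfrc 6264th. By the ratio of shares among Kel-positive and Kel-negative cells the first were Slc38a5, an amino acid transporter (28.2% and 0.131%), Tspo2 (51.9% and 0.276%), Mmp14 (27.5% and 0.174%) and Ermap (42.0% and 0.349%). Of these genes Atp1b2 had a log2 ratio of -2.16 over all cells, Mmp14 -2.43, Slc38a5 -2.96, Gm15915 -3.01 and Tspo2 -4.05. They were picked in the control library by their counts and their likeness to Kel, itself chosen for its low ratio. That choice favours genes high in the control library, so these ratios are a description.

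Other genes of the pathway were read from 6 lists, with 57 of their genes at 100 UMIs or more. Of these 19 were at least 2-fold lower, against 5.36% of all genes tested, and 1 was at least 2-fold higher, against 1.39%. The median log2 ratio was -0.61, beside -0.114 over all genes. The same 5.36% and 1.39% stand behind the count of each list. Among membrane, skeleton and blood group genes 6 of 11 were 2-fold lower, with a list median of -1.09. They included Icam4, the Landsteiner-Wiener blood group protein (7.49 and 3.51 CPM), the skeleton anchor Ank1 (2.16 and 0.542 CPM), Rhd (1.52 and 0.341 CPM) and Art4, the carrier of the Dombrock blood group (1.11 and 0.341 CPM). Xk, whose protein binds the Kell protein, had 21.4 and 19.0 CPM (log2 ratio -0.17).

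Among early erythroid surface and enzyme genes 6 of 8 were 2-fold lower and 1 was higher. Mfsd2b, a sphingosine 1-phosphate exporter of red cells and platelets, had 11.9 and 5.16 CPM, Hemgn 6.89 and 1.22 CPM, Samd14 3.86 and 1.40 CPM and Tspan33 3.16 and 0.673 CPM. Cd36, a fatty acid receptor that monocytes and macrophages also carry, went from 1.01 to 2.19 CPM, of which erythroid-like cells held 2 and 1 UMIs.

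The lists of regulators and of haem synthesis differed less. Of 12 transcription regulators 2 were 2-fold lower, the GATA1 partner Zfpm1 (26.7 and 11.2 CPM) and Gfi1b (7.66 and 3.44 CPM), with a list median of -0.66. Of 15 haem and iron genes 1 was, the haem enzyme Alad (15.2 and 7.45 CPM), a count near the 5.36% of all genes, with a list median of -0.26. Of 8 genes of Epo signalling 1 was, the feedback inhibitor Cish (2.48 and 0.822 CPM), with a list median of -0.65. All 3 globin genes with enough UMIs were lower, Hbb-bs with 302 and 86 UMIs, Hbb-bt with 162 and 83 and Hba-a1 with 78 and 28, but reads of such near-identical copies can be split between them, and erythroid-like cells held 15, 16 and 2 of the control UMIs. In erythroid-like cells 7 of 42 list genes were 2-fold lower and 0 higher, against 3.1% and 1.81% of all genes.

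On the surface, Kel-positive control cells were Kit-high progenitors. Per 10000 tag UMIs without hashtags their medians were 1458 for CD117 (Kit), 6212 for CD48, 556 for CD16/32, 310 for the megakaryocyte and erythroid progenitor marker CD150, 72.3 for CD41 and 40.9 for CD34. HSC/MPP-like control cells had 1391 for CD117, 14.0 for CD150 and 293 for CD34. Megakaryocyte-like control cells had 784 for CD150 and 550 for the platelet integrin CD41. Kel-negative control cells had 136 for CD117 and 3236 for the granulocyte tag Gr1, against 211 for Gr1 in Kel-positive cells. The 4 Kel-positive cells of the library labelled Utx-deleted had medians of 1125 for CD117 and 159 for CD150.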

How the data were processed

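The authors deposited raw UMI counts per feature and barcode for 32285 genes and 15 antibody tags in each of 2 libraries. Per the submitters' processing notes they were made with Cell Ranger 7.1.0 on mm10. The annotation is not given in the sources used here; coordinates come from GENCODE M21 (GRCm38), which holds 99.6% of the gene IDs. The later steps used Python 3.11.15, scanpy 1.11.5, leidenalg 0.10.2, scipy 1.17.1 and edgeR 4.0.16 (TMM factors only).

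Barcodes needed 500 genes and a mitochondrial share below 10%; 349 and 214 missed this. Scrublet's automatic threshold marked 1 and 0 barcodes and had not worked, so the top 6% of scores were left out (467 and 463). Hashtags were called at 100 UMIs and 5 times the other. The libraries were clustered together (2000 variable genes without the 10 genes, Kdm6a and sex-specific genes, 30 components, 15 neighbours, Leiden resolution 1, no adjustment between libraries) into 22 clusters. The cluster with the highest erythroid score was clustered again at resolution 0.5, chosen after the data were seen, which gave 27 clusters, 3 of them unnamed with 1960 and 60 cells. A cluster was named for the marker list with the top mean z-score, where at least 3 of its genes were detected in 25% of its cells, and stayed unnamed where the next class was within 0.25, where another class led its top 10 genes, or where its UMIs were low.

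Levels are CPM of UMIs summed over cells, and log2 ratios add 1 UMI to each sum. Counts past 2-fold cover genes with 100 or more UMIs summed over the libraries. The ratio and its interval were tested on simulated data. The 10 genes, the lists and the rules were chosen with earlier results of these data known. Named besides the members were Kdm6a, list genes past 2-fold (up to 4 per list by UMIs summed over the libraries), and the 5 genes most like Kel by each of 2 measures, of which 1 is not reported here; Xk, Cd36 and the cluster-leading genes were chosen after their values were seen. Ahsp of the globin list was not analysed here. Alternatives were a stricter filter (1000 genes, 5% mitochondrial), no doublet removal, each hashtag, no barcodes with both hashtags, other scalings, thinning to 2000 UMIs, other minimums and thresholds, 0.5 UMIs added, and other ways to define erythroid-like cells.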

Additional observations from a re-analysis of the deposited data

How the results depend on the processing

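The log2 ratio of Kel was below 0 under every alternative run, though in 1 of them its interval included 0 (the class from each cell's own markers). Over all kept cells its log2 ratio lay between -5.95 (hashtag 2) and -4.07 (hashtag 1); thinned to 2000 UMIs it had 30 and 0 UMIs, at least 10.4-fold lower against a floor of 3 counts over the library. Per UMI of the other 9 genes hashtag 1 gave -2.82, against -3.62 with all cells. In the parent cluster the value of -3.71 became -2.55 in hashtag 1 and -5.04 in hashtag 2. In erythroid-like cells the value of -2.55 became -1.06 for the later cluster alone and -0.64 with a class from each cell's own markers, and the difference in share, -1.49 percentage points, became -0.74 and -0.67 points. Under 11 alternatives the count of the 10 genes that were 2-fold lower was 7 or 8 under 10 of them and 3 after thinning, because fewer genes then had 100 UMIs. For the other 9 genes 71 of 72 values were below 0, and Blvrb after thinning (0.24) was above. TMM scaling moved the median of all genes by 0.125 and the calls from 727 lower and 188 higher to 613 and 230. Few cells limit these values: 4 in the later cluster and 42 erythroid-like ones in all under the Utx-deleted label. No paired analysis was possible because each group has 1 library.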
